A study of Mus musculus with 6 samples.

Results

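Genes of cholesterol synthesis, of its control and of cholesterol export were examined in mouse embryonic fibroblasts (MEFs) by RNA sequencing of 6 libraries. MEFs are connective tissue cells grown from embryos. The 31 genes were chosen by name, and each was found by its Ensembl identifier among the 56953 genes of the deposited table. They comprise 19 enzymes that lead from citrate to cholesterol, 5 genes of the SREBP system that controls them, the sterol carrier Stard4, the esterifying enzyme Soat1, both LXR genes and the LXR targets Abca1, Abcg1 and Mylip. Of these genes, only Mylip bears on lipoprotein uptake, through the breakdown of the receptors. There were 3 libraries labelled WT and 3 labelled GαqKO. The GαqKO cells are described in the study's methods as Gαq/11 knockout MEFs, and both cell stocks came from the same laboratory. No agent was given to either, and both were grown in DMEM with fetal bovine serum, which contains lipoproteins. A single line of each genotype is named, so the genotype and any other difference between the lines cannot be told apart.

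Cells make cholesterol from acetyl-CoA through mevalonate, the isoprenoid farnesyl diphosphate, squalene and lanosterol. When membrane cholesterol is low, SCAP carries the SREBP transcription factors from the endoplasmic reticulum to the Golgi, where they are cut and released to switch on the enzymes. When it is high, INSIG proteins hold SCAP back, and oxysterols activate the LXR nuclear receptors, which switch on the exporters ABCA1 and ABCG1 and the ubiquitin ligase MYLIP (also called IDOL). SREBF2 mainly drives sterol genes and SREBF1 fatty acid genes, and Srebf1 is itself an LXR target.

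The table holds normalized counts, which are read counts per gene divided by a size factor for each library, and these summed to between 11392429 and 11483486 per library. A gene was tested when 3 or more libraries held 10 or more of its normalized counts, as was so for 14096 genes, all 31 sterol genes among them. Differences are given as log2 fold changes of (normalized count + 1), GαqKO minus WT, with their standard error (SE) and a Benjamini-Hochberg adjusted p from limma. For genes with low counts this scale makes the change look smaller than it is. Gnaq, the gene of Gαq, was not lower in the libraries labelled GαqKO (log2 fold change 0.19, SE 0.045, adjusted p = 0.00212 from limma), while Gna11 was (-2.25, SE 0.057, adjusted p = 9.16e-13 from limma), so every direction below is drawn from the labels. These are RNA counts. At the protein level the study reports loss of Gαq in its GαqKO MEFs by Western blot and immunofluorescence. The fibroblast markers Vim, Col1a1, Col1a2 and Fn1 were abundant in each library, while Fap had at most 1.9 normalized counts in any library. Of the 9 fibroblast markers tested, 5 were higher in GαqKO (Pdgfra, Dcn, Thy1, S100a4 and Pdgfrb) and 4 were lower (Vim, Col1a1, Col1a2 and Fn1). Pdgfra had between 17.5 and 21.9 normalized counts in WT and between 2273.9 and 2356.4 in GαqKO, Dcn between 30.1 and 35.5 and between 1604.2 and 1710.0, and Thy1 between 0.0 and 2.1 and between 59.0 and 76.5. The sum of all 10 fibroblast markers, most of it from the 4 that were lower, was between 81662.8 and 87524.9 in WT and between 60644.4 and 63811.7 in GαqKO. The epithelial markers summed to between 515 and 540.9 in WT and between 10.1 and 23.1 in GαqKO, with Krt14 and Cdh1 the main part of the WT sum, while Krt5 had at most 1.0 and Epcam at most 8.1 in any library. The neural markers summed to between 841.8 and 956.9 in WT and between 588.1 and 605.9 in GαqKO, and the endothelial markers to at most 33.5. The part of these differences in the results was not tested. In bulk RNA, fewer cells that express a gene and less RNA per cell cannot be told apart.

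The sterol genes were not shifted together. Of the 31, 18 passed an adjusted p of 0.05 in limma, beside 65.8% of all genes tested. In the libraries labelled GαqKO 10 of these were higher and 8 were lower, which is 32.3% and 25.8% of the 31, beside 31.8% and 34.1% of all genes tested. Abca1 and Mylip, 2 of the 10, also had a log2 fold change over 1, and 0 of the 8 had one under -1, beside 10.2% and 10.5% of all genes tested. All genes tested are not matched to the sterol genes for level, and they include genes with low counts. With 10 normalized counts required in every library, 831 of 12054 genes passed both these thresholds upward and 765 downward. In the main fit these were 1432 and 1486 of 14096. Without overlap between the groups, 12 of the 31 were higher and 9 lower, beside 33.8% and 35.8% of all genes tested. The median log2 fold change was 0.06 over the 31 sterol genes and -0.01 over all genes tested. The 31 genes together summed to between 30111 and 30555 normalized counts in the WT libraries and between 30606 and 31395 in those labelled GαqKO.

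**Figure D1:**
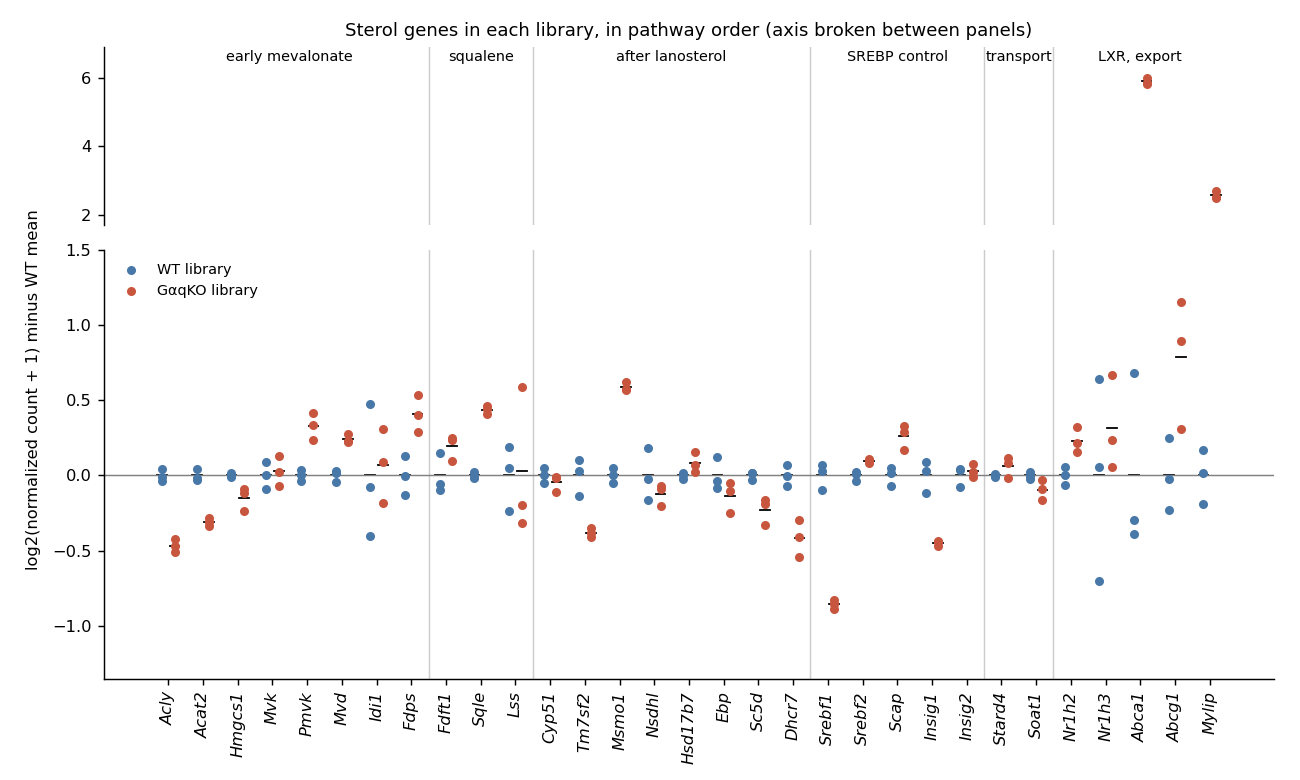
Each point is 1 library, plotted as log2(normalized count + 1) minus the mean of the 3 WT libraries, with the 31 genes in pathway order on the horizontal axis, black lines at the group means and the vertical axis broken between 1.5 and 1.7. Most genes lie within 0.6 of the WT mean, Srebf1 lies lowest, and Abca1 and Mylip stand above the break.

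By the same threshold, 5 of the 19 synthesis enzymes were higher and 6 were lower, or 26.3% and 31.6%, which is near the shares for all genes given above. Each of the 19 had a log2 fold change under 0.6 in size, as did 64.5% of all genes tested. The median size of the change was 0.23 for the enzymes and 0.39 for all genes tested. Neither this median nor the 64.5% is matched for level, so they do not compare the enzymes with genes of like abundance. The enzymes summed to between 16730 and 17068 normalized counts in WT and between 16841 and 17382 in GαqKO, so the groups overlap on this sum.

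**Figure D2:**
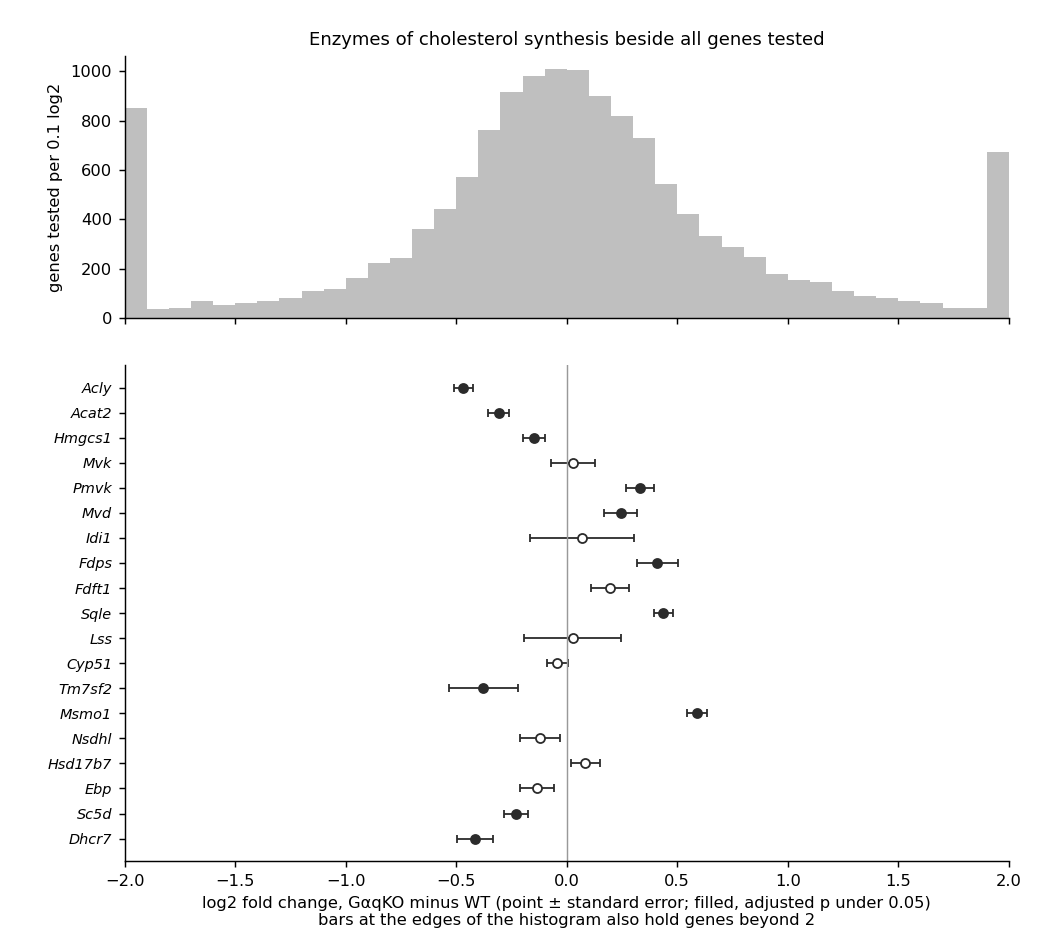
The upper panel counts the 14096 genes tested by their log2 fold change (GαqKO minus WT), with genes beyond 2 placed in the edge bars, and the lower panel gives each enzyme's log2 fold change with its standard error on the same axis. Filled points passed an adjusted p of 0.05 in limma, 5 on the right and 6 on the left of 0, all within 0.6 of it.

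The first enzymes of the pathway fell. Acly, which splits citrate into the cytosolic acetyl-CoA that feeds both sterols and fatty acids, had 2717.0, 2658.8 and 2816.4 normalized counts in the WT libraries and 1917.5, 2033.8 and 1968.7 in those labelled GαqKO. Its log2 fold change was -0.47 (SE 0.044, adjusted p = 5.52e-07 from limma). Every GαqKO library lay below every WT library. Acat2, which joins acetyl-CoA units into acetoacetyl-CoA, had 1414.9, 1356.1 and 1344.6 normalized counts in WT and 1087.4, 1126.2 and 1108.7 in GαqKO, again with no overlap (log2 fold change -0.31, SE 0.048, adjusted p = 6.65e-05 from limma). Hmgcs1, the HMG-CoA synthase of the cytosol, had 1552.7, 1562.0 and 1581.7 normalized counts in WT and 1446.1, 1326.2 and 1468.3 in GαqKO. The groups did not overlap, but this change was small, at a log2 fold change of -0.15 (SE 0.051, adjusted p = 0.0191 from limma), and the adjusted p was 0.0506 without WT replicate 2 and 0.102 without GαqKO replicate 2.

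The enzymes that turn mevalonate into farnesyl diphosphate differed in the other direction or did not pass the test. Mvk, the mevalonate kinase, had between 214.8 and 244.3 normalized counts in WT and between 218.5 and 250.8 in GαqKO (log2 fold change 0.03, adjusted p = 0.813 from limma). Pmvk, the next kinase, had 537.8, 511.9 and 526.2 normalized counts in WT and 663.9, 619.7 and 700.9 in GαqKO, a log2 fold change of 0.33 (SE 0.065, adjusted p = 0.000513 from limma). Mvd, the decarboxylase that makes isopentenyl diphosphate, had 302.8, 306.0 and 290.1 normalized counts in WT and 351.2, 350.3 and 362.5 in GαqKO. Both genes were higher in each GαqKO library than in any WT library, with a log2 fold change of 0.24 for Mvd (SE 0.076, adjusted p = 0.0122 from limma). Idi1, the isomerase of that product, was low and variable, with between 42.7 and 79.4 normalized counts in WT and between 49.8 and 70.5 in GαqKO (adjusted p = 0.808 from limma). Fdps, the farnesyl diphosphate synthase, rose from 318.5, 266.2 and 290.1 to 355.9, 385.0 and 420.9 normalized counts, a log2 fold change of 0.41 (SE 0.093, adjusted p = 0.00149 from limma). Summed over these 8 genes, from Acly to Fdps, there were between 6933 and 7167 normalized counts in WT and between 6105 and 6341 in GαqKO. The 3 genes that fell are more abundant than the 3 that rose.

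In the squalene branch only Sqle passed the test. This gene encodes squalene epoxidase, a rate-controlling enzyme of the sterol part of the pathway. Sqle had 1922.4, 1975.9 and 1929.8 normalized counts in WT and 2581.4, 2674.4 and 2637.4 in GαqKO. Each GαqKO library was above each WT library, with a log2 fold change of 0.44 (SE 0.042, adjusted p = 5.8e-07 from limma). Fdft1, the squalene synthase, had 318.5, 327.4 and 377.6 against 401.0, 404.7 and 364.5 normalized counts, groups that overlap (log2 fold change 0.20, SE 0.086, adjusted p = 0.0614 from limma). The adjusted p of Fdft1 was 0.0136 without WT replicate 3 and 0.0472 without GαqKO replicate 3. Lss, the cyclase that forms lanosterol, was low, with between 76.2 and 102.8 normalized counts in WT and between 72.3 and 135.9 in GαqKO (adjusted p = 0.922 from limma).

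After lanosterol, 1 of the 8 enzymes rose and 3 fell. Msmo1, the sterol C4-methyl oxidase (ENSMUSG00000031604.11; GRCm39 chromosome 8, 65170603 to 65186830, minus strand), rose most of all the enzymes. It had 1697.8, 1577.6 and 1636.7 normalized counts in WT and 2513.8, 2431.6 and 2443.1 in GαqKO, a log2 fold change of 0.59 (SE 0.045, adjusted p = 6.24e-08 from limma). The lowest GαqKO library was well above the highest WT library. Nsdhl and Hsd17b7, whose products act in the same C4-demethylation complex, had log2 fold changes of -0.12 (adjusted p = 0.254 from limma) and 0.08 (adjusted p = 0.281 from limma). Cyp51, the lanosterol demethylase, was the most abundant enzyme per kilobase of annotated exon. It had between 2254.5 and 2415.0 normalized counts in WT and between 2169.1 and 2320.2 in GαqKO (log2 fold change -0.04, SE 0.047, adjusted p = 0.433 from limma).

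The other enzymes after lanosterol fell or did not pass the test. Dhcr7, the last enzyme of the branch through 7-dehydrocholesterol, had 508.5, 481.8 and 461.1 normalized counts in WT and 364.3, 331.8 and 392.7 in GαqKO. No library of one group reached the other, and the log2 fold change was -0.42 (SE 0.08, adjusted p = 0.000426 from limma). Sc5d, the desaturase that makes the substrate of DHCR7, had 1313.6, 1358.1 and 1356.8 against 1174.7, 1069.5 and 1199.4 normalized counts (log2 fold change -0.23, SE 0.054, adjusted p = 0.00212 from limma). Tm7sf2, a sterol C14 reductase that acts on the product of CYP51, had 94.0, 79.7 and 89.6 against 65.7, 67.1 and 68.5 normalized counts. Its log2 fold change was -0.38 (SE 0.156, adjusted p = 0.0462 from limma), and the adjusted p was over 0.05 without WT replicate 1 (0.124), WT replicate 3 (0.0968), GαqKO replicate 1 (0.0932), GαqKO replicate 2 (0.0766) or GαqKO replicate 3 (0.0731). Ebp, the sterol isomerase, had between 581.2 and 669.3 normalized counts in WT and between 516.5 and 593.2 in GαqKO (adjusted p = 0.127 from limma).

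Per kilobase of exon, the enzymes ranged in WT from 7.99 normalized counts for Lss to 394 for Cyp51, and in GαqKO from 8.42 for Lss to 382 for Cyp51. Hmgcs1 (297 per kb), Acat2 (234), Sqle and Sc5d (219 each) followed Cyp51 in the WT libraries. In GαqKO the order after Cyp51 was Sqle (296 per kb), Msmo1 (277) and Hmgcs1 (268). Of all 31 genes, Srebf2 was highest on this scale in both groups, at 574 in WT and 615 in GαqKO. The exon length joins the exons of all annotated transcripts of a gene, such as 14.57 kb for Acly and 5.94 kb for Cyp51. It can exceed the length of the transcript expressed, so the order of genes on this scale depends on the annotation. In normalized counts not divided by length, Acly (WT mean 2730.7) was above Cyp51 (WT mean 2336.5). Levels between genes also depend on where reads could be counted, and some exons overlap an exon of another gene in the table. That share of exon length was 24.8% for Fdft1, 24.6% for Cyp51, 12.04% for Hmgcs1, 10.8% for Tm7sf2, 10.7% for Srebf2, 10.02% for Scap and 3.62% for Lss, and 0% for Abca1, Mylip, Msmo1, Dhcr7 and Sc5d. The exons of Insig1 lie within the span of Gm26608 but overlap none of its exons.

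**Figure D3:**
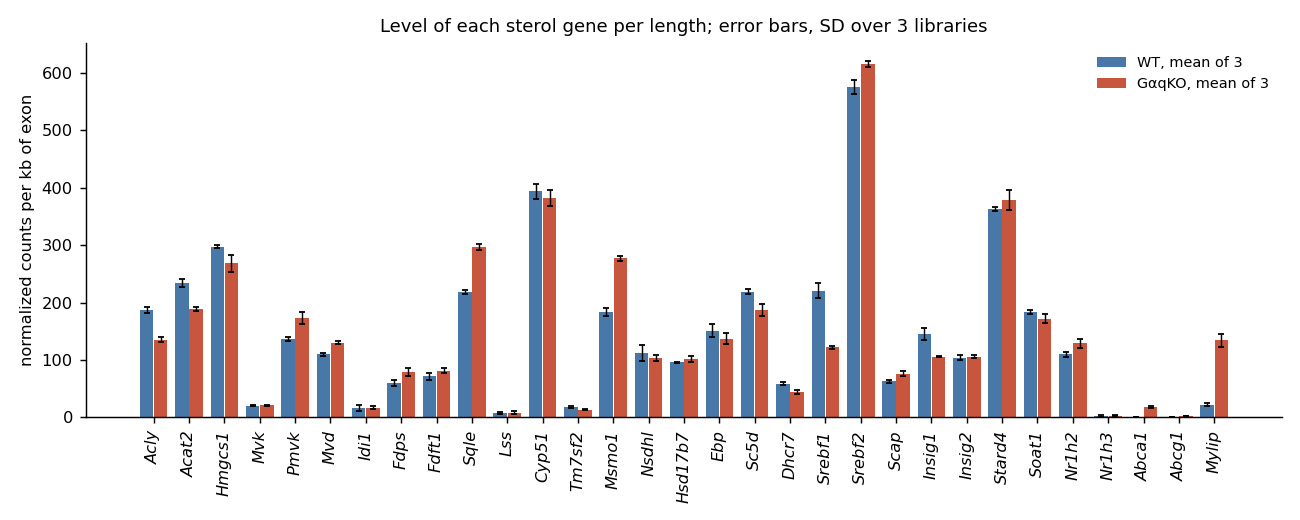
Bars give the mean normalized count per kilobase of exon (all annotated transcripts joined) for each of the 31 genes in WT and in GαqKO, with the SD over 3 libraries. Srebf2 is highest in both groups, Cyp51 is the highest enzyme, and Nr1h3, Abcg1 and the WT bar of Abca1 are close to 0.

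The promoters of Msmo1 and Hmgcs1 are shown. Msmo1 is the enzyme that rose most, and of the 26 sterol genes with a window only that of Hmgcs1 holds the exact letters TCACNCCAC. The windows run from 250 bases before to 50 bases after the RefSeq start of transcription (table of build GRCm38.p6), and each was placed by exact match in GRCm39, Msmo1 at chr8:65186563-65186862 on the minus strand and Hmgcs1 at chr13:120151637-120151936 on the plus strand. Capitals mark the CCAAT box of NF-Y, the GC box GGGCGG of Sp1, the E-box CACGTG and the sterol response element searched as TCACNCCAC, on either strand.
Msmo1: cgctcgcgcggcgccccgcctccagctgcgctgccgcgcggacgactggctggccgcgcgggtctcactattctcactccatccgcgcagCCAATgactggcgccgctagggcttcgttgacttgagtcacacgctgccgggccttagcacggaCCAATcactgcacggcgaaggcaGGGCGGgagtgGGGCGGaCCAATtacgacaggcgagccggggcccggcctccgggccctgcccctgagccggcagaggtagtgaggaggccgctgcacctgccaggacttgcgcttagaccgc
Hmgcs1: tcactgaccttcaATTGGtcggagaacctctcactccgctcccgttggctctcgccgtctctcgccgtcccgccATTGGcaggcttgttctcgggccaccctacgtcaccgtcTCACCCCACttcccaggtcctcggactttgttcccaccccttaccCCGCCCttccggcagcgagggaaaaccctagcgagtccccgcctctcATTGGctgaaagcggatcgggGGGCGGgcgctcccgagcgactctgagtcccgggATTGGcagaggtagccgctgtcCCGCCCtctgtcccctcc
Of the 31 genes 26 had a window in this table (not Fdps, Fdft1, Sqle, Stard4 and Abcg1), and 21 of the 26 (80.8%) held CCAAT, against 41.1% of the 27025 genes with a window. GGGCGG was present for 23 (88.5%, against 38.2%), CACGTG for 6 (23.1%, against 8.09%) and TCACNCCAC for 1 (3.85%, against 1.44%). The 27025 genes include genes not tested here and are not matched for level or base composition. These shares thus do not compare the sterol genes with like promoters. Other forms of the sterol response element were not searched, nor were bases outside the windows, so genes without these letters may still hold one. The 16 enzymes with a window included 15 with CCAAT and 15 with GGGCGG, among them genes that rose, such as Msmo1, and genes that fell, such as Acly and Dhcr7. Genes with several windows were counted once, as holding a motif if any window did.

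In the SREBP system the 2 transcription factor genes differed. Srebf1 (ENSMUSG00000020538.16; GRCm39 chromosome 11, 60089913 to 60113407, minus strand) fell most of the 31 genes. It had 1213.3, 1361.9 and 1324.2 normalized counts in WT and 729.6, 719.2 and 700.9 in GαqKO, a log2 fold change of -0.86 (SE 0.057, adjusted p = 1.33e-08 from limma). The GαqKO libraries lay close together and far below the WT libraries. Srebf2 had 5461.1, 5236.9 and 5398.7 normalized counts in WT and 5789.1, 5688.7 and 5762.2 in GαqKO, a log2 fold change of 0.10 (SE 0.039, adjusted p = 0.0363 from limma). This small rise passed in only 6 of 15 alternatives, and its adjusted p was 0.0671 in edgeR, 0.075 in DESeq2, 0.0726 with no filter on low values and 0.114 with no trend in the prior spread (limma). In limma it was 0.138 without WT replicate 2, 0.097 without GαqKO replicate 1, 0.0611 without GαqKO replicate 2 and 0.0884 without GαqKO replicate 3. Per kilobase of exon, the ratio of Srebf1 to Srebf2 was 0.352, 0.412 and 0.389 in the WT libraries and 0.2, 0.2 and 0.193 in those labelled GαqKO.

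Scap, the escort of the SREBPs, had 768.5, 816.0 and 836.7 normalized counts in WT and 986.0, 1012.9 and 908.3 in GαqKO, and every GαqKO library was higher (log2 fold change 0.26, SE 0.06, adjusted p = 0.00155 from limma). Insig1, a retention protein of SCAP and itself a classical SREBP target, had 750.8, 649.9 and 720.6 normalized counts in WT and 522.1, 520.3 and 509.6 in GαqKO. It fell by 0.45 on the log2 scale (SE 0.067, adjusted p = 4.55e-05 from limma), with no overlap between the groups. Insig2, the second retention protein, had between 584.7 and 633.4 normalized counts in WT and between 612.2 and 649.5 in GαqKO (log2 fold change 0.03, adjusted p = 0.678 from limma). The ratio of Insig1 to Insig2 per kilobase was between 1.25 and 1.56 in WT and between 0.953 and 1.04 in GαqKO. Stard4, which carries sterol between membranes, had between 2202.6 and 2236.2 normalized counts in WT and between 2193.4 and 2402.8 in GαqKO (adjusted p = 0.259 from limma). Soat1, which esterifies cholesterol for storage, had 1994.4, 1960.3 and 1927.8 against 1753.2, 1844.2 and 1919.4 normalized counts (log2 fold change -0.09, SE 0.047, adjusted p = 0.097 from limma).

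The largest difference was in Abca1 (ENSMUSG00000015243.5; GRCm39 chromosome 4, 53030787 to 53159900, minus strand), the transporter that loads cellular cholesterol onto apolipoprotein A-I. Abca1 had 2.1, 1.9 and 5.1 normalized counts in the WT libraries and 243.2, 215.1 and 216.5 in those labelled GαqKO. It was close to absent in each WT library and clearly present in each GαqKO library. Its log2 fold change was 5.89 (SE 0.3, adjusted p = 8.57e-10 from limma), and it stayed between 5.70 and 6.23 on leaving out any 1 library. With WT counts this low the value depends on the pseudocount, and it was 4.86 with a pseudocount of 5 and 6.10 with one of 0.5. In the 5 libraries whose reads could be recovered there were 9 reads of Abca1 in the 3 WT libraries and 445 in 2 GαqKO libraries, a ratio of 76.1 after scaling, with an exact 95% interval from 39.7 to 167 that covers counting error only. Abca1 passed the filter on low values only through the GαqKO libraries. Per kilobase of exon its level was 0.248 in WT and 18.3 in GαqKO, so that even there it stayed below Scap at 75.9.

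Mylip, the LXR-induced ubiquitin ligase that marks lipoprotein receptors for breakdown (ENSMUSG00000038175.11; GRCm39 chromosome 13, 45543215 to 45565501, plus strand), rose as well. It had 82.5, 73.8 and 64.1 normalized counts in WT and 419.7, 484.5 and 428.0 in GαqKO, 5.99-fold higher on the fitted scale (log2 fold change 2.58, SE 0.12, adjusted p = 3.35e-10 from limma). The groups were far apart, and the log2 fold change stayed between 2.49 and 2.67 on leaving out any 1 library. No other LXR-linked gene among the 31 had a log2 fold change over 1 in the fit of all 6 libraries. Abcg1, which exports cholesterol to high density lipoprotein, was low in both groups, at 12.5, 8.7 and 10.2 normalized counts in WT and 13.1, 24.3 and 20.1 in GαqKO (log2 fold change 0.79, SE 0.345, adjusted p = 0.0596 from limma). Its adjusted p was 0.0337 without GαqKO replicate 1, where the log2 fold change was 1.02. Srebf1, described above, fell. Its count joins all transcripts of the gene, which has 3 promoter windows, so transcripts from different starts cannot be told apart.

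Of the receptors themselves, Nr1h2, which encodes LXRβ, had 381.1, 395.4 and 364.4 normalized counts in WT and 441.3, 423.2 and 476.3 in GαqKO. Its log2 fold change was 0.23 (SE 0.075, adjusted p = 0.0144 from limma), and the adjusted p was 0.0725 without GαqKO replicate 3. On the 5 libraries with recovered reads, which leave out the same replicate, the adjusted p was 0.0613 in edgeR and 0.164 in DESeq2. Nr1h3, which encodes LXRα, was near the filter, with 18.8, 6.8 and 12.2 against 12.2, 13.9 and 19.1 normalized counts and groups that overlap (adjusted p = 0.494 from limma). Per kilobase of exon, Nr1h2 was at 110 and 129 in WT and GαqKO and Nr1h3 at 2.49 and 2.98. Of the 6 leukocyte markers, Ptprc had at most 3.1 normalized counts in any library, Adgre1 at most 6.9, and Itgam was listed at 0 throughout. Csf1r had between 8.1 and 20.4 over the 6 libraries, and Cd68 between 84.6 and 103.9 in WT and between 54.5 and 79.8 in GαqKO (adjusted p = 0.0296 from limma). Together they summed to between 208.7 and 219.5 in WT and between 437.6 and 464.8 in GαqKO, a difference carried by Cd14, which had between 93.6 and 106.5 normalized counts in WT and between 361.9 and 368.1 in GαqKO. The adipocyte markers summed to between 264.6 and 344.6 in WT, nearly all of it Lpl, and to between 25.2 and 31 in GαqKO, most of it Fabp4. Fabp4 was higher in GαqKO, with 1.0, 1.9 and 0.0 normalized counts in WT and 28.2, 23.1 and 24.2 in GαqKO, and Adipoq, Plin1 and Cidec were at 1.2 or below in each library. Their part in the result was not tested.

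**Figure D4:**
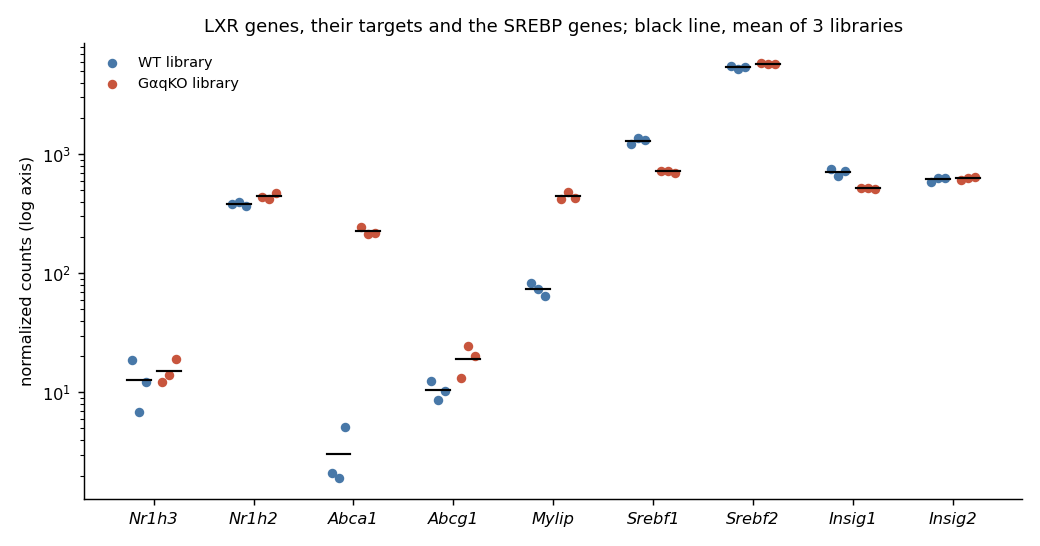
Each point is the normalized count of 1 library on a log axis, and black lines are means of 3 libraries. Abca1 and Mylip are separated between the groups by the widest gaps, Srebf1 and Insig1 are lower in GαqKO, and Nr1h3 and Abcg1 lie under 25 normalized counts in both groups.

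The promoters of the 2 genes that rose most and of Srebf1, which fell most, are given for comparison, with the same window and the same capitals. In GRCm39 they lie at chr4:53159846-53160145 for Abca1 and chr11:60113358-60113657 for Srebf1, both on the minus strand, and at chr13:45542968-45543267 on the plus strand for Mylip. Srebf1 has 3 windows, of which the one farthest upstream is shown.
Abca1: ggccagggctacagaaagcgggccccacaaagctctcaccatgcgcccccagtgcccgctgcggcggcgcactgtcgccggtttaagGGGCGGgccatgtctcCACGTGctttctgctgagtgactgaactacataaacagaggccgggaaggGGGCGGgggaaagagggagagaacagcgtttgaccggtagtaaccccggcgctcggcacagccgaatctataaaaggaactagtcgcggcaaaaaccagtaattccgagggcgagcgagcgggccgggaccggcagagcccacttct
Mylip: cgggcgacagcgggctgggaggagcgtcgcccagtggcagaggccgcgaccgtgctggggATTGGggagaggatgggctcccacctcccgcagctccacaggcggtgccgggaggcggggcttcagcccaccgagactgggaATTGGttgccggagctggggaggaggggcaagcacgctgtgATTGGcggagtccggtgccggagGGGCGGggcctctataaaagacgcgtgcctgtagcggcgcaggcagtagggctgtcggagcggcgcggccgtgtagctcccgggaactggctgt
Srebf1: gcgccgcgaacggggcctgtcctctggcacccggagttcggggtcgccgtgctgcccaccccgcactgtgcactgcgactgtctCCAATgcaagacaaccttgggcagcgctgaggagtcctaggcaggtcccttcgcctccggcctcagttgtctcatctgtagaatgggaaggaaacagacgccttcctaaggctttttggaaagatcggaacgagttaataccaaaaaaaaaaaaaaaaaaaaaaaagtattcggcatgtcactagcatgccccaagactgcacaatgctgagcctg
The Abca1 window held 2 GC boxes and 1 E-box and no CCAAT, and the Mylip window held 3 CCAAT boxes and 1 GC box. The Srebf1 window shown held 1 CCAAT box and no GC box, and at least 1 other window of this gene held a GC box. A perfect DR4, the form of element that LXR binds with its partner RXR, was searched as AGGTCA given in direct repeat with 4 free bases between the copies, and was in 0 of the 26 windows and in 0.0148% of all genes with one. Imperfect repeats were not searched, so this says only that these exact letters are not in the windows.

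Neighbouring genes of lipid metabolism were taken from 6 further lists of 78 genes, of which 71 were tested, with 23 (32.4%) higher and 27 (38.0%) lower by the same threshold, beside 31.8% and 34.1% of all genes tested. Both thresholds were passed by 9.86% of the 71, beside 20.7% of all genes tested, a share not matched for level. Of 17 genes listed for fatty acid metabolism and SREBF1, 6 (35.3%) were higher and 5 (29.4%) lower, near the 31.8% and 34.1% of all genes tested, with a median log2 fold change of 0.01. How far each of them is controlled by SREBF1 was not tested. Past a log2 fold change of 1, Lpin1, a phosphatidate phosphatase, had 59.5, 52.5 and 95.7 normalized counts in WT and 181.2, 212.7 and 187.3 in GαqKO (1.52, SE 0.194, adjusted p = 1.09e-05 from limma). Mid1ip1, an activator of acetyl-CoA carboxylase, had 1184.1, 1047.2 and 1016.8 against 437.6, 466.0 and 398.8 (-1.32, SE 0.075, adjusted p = 2.78e-09 from limma). These 2 genes thus differed in opposite directions, each with no overlap between groups.

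Among 16 genes of the isoprenoid branches, which use farnesyl diphosphate for prenylation, dolichol and ubiquinone, 4 (25%) were higher and 7 (43.8%) lower, beside the same 31.8% and 34.1%. Rabggta, a subunit of the enzyme that prenylates RAB proteins, passed both thresholds, with 136.8, 131.1 and 114.0 normalized counts in WT and 272.3, 270.6 and 232.6 in GαqKO (log2 fold change 1.02, SE 0.116, adjusted p = 3.55e-06 from limma). Of 11 genes of sterol sensing and SREBP cleavage, 5 (45.5%) were higher and 4 (36.4%) lower, beside 31.8% and 34.1% of all genes tested, with log2 fold changes between -0.65 and 0.67.

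Uptake, lysosomal release and transfer between membranes were covered by 16 genes, of which 15 were tested, with 4 (26.7%) higher and 6 (40%) lower, beside 31.8% and 34.1% of all genes tested. Lipa, the lysosomal acid lipase that frees cholesterol from lipoprotein esters, had 581.6, 538.2 and 520.1 normalized counts in WT and 163.4, 166.5 and 175.2 in GαqKO. It fell by 1.69 on the log2 scale (SE 0.083, adjusted p = 5.79e-10 from limma), and no library of one group reached the other. Gramd1b, an endoplasmic reticulum protein that draws cholesterol from the plasma membrane, had 38.6, 23.3 and 38.7 normalized counts in WT and 201.0, 195.4 and 204.4 in GαqKO (2.58, SE 0.196, adjusted p = 5.67e-08 from limma). Its relative Gramd1c had 25.1, 11.7 and 25.4 against 42.3, 40.5 and 46.3 (1.09, SE 0.302, adjusted p = 0.00581 from limma). Both were higher in each GαqKO library than in any WT library.

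Of 11 further LXR targets and partners, 9 were tested, with 3 (33.3%) higher and 5 (55.6%) lower, beside 31.8% and 34.1% of all genes tested, and a median log2 fold change of -0.23, against -0.01 over all genes. The highest of these was 0.79 and the lowest -0.47, so none passed a log2 fold change of 1. Of 7 enzymes that make or clear oxysterols, 3 were tested. Cyp7b1, which hydroxylates and inactivates oxysterols, had 0.0, 1.0 and 0.0 normalized counts in WT and 36.6, 34.7 and 31.2 in GαqKO, and it passed the filter only through the GαqKO libraries. In the recovered reads it had 1 read in WT and 69 in GαqKO, a scaled ratio of 106 with an exact 95% interval from 18.4 to 4250 that covers counting error only. The cholesterol 25-hydroxylase gene Ch25h had at most 3.1 normalized counts in any library and was not tested.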

How the data were processed

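RNA of MEFs (3 libraries labelled WT, 3 labelled GαqKO) was sequenced after poly-A selection as paired-end reads. Alignment by the authors was to GRCm39 with Rbowtie2, which does not split reads across introns, followed by featureCounts with the GENCODE 32 annotation and DESeq2. What they deposited is a signal: the reads of each gene over the size factor of the library (normalized counts). Tool versions and the strand setting of the counting are not given in the sources used here. Gene symbols, exon lengths and coordinates were taken from GENCODE mouse release 39 (also GRCm39), in which 56310 of 56953 identifiers (98.9%) were found.

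All 6 libraries were fitted with limma 3.58.1 in R 4.3.3 on log2(normalized count + 1), letting the prior spread follow the mean level, over 14096 genes for which 3 or more libraries held 10 or more normalized counts. Adjusted p-values are over all genes tested. Whole reads (within 0.05) were recovered for 100.0% of nonzero values in 5 libraries, between 9853000 and 12229175 reads each. The reads of GαqKO replicate 3 were not used. edgeR 4.0.16 and DESeq2 1.42.0 were run on those 5 as alternatives, over the genes tested in limma, beside other pseudocounts, filters, scalings and left-out libraries (the filter then asked for 2 libraries). The methods state biological replicates. Set against counting noise, same-group pairs with recovered reads had a chi-square of 2.43 to 5.55 per gene. The libraries of each pair thus differed by more than counting noise. This cannot tell separate libraries from 1 library sequenced in different runs. GαqKO replicate 3 was in no pair, and separate libraries from 1 culture would not be detected in this way. The p-values measure the spread between these libraries.

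The sterol genes, the further lists and the markers were chosen with earlier results of these data known. All 31 sterol genes are named, and of the further lists the genes past both thresholds. Cyp7b1 meets that rule and Ch25h was named after its values were seen, as were the single markers. Counting intervals are exact binomial intervals. The scripts were tested on simulated data.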

Additional observations from a re-analysis of the deposited data

How the results depend on the processing

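Of the 18 sterol genes that passed an adjusted p of 0.05, 13 passed it under each of the 15 alternatives in which they were tested, and 5 (Hmgcs1, Mvd, Tm7sf2, Srebf2 and Nr1h2) lost it in at least 1. Mvd lost it in DESeq2 alone (adjusted p = 0.12). Abca1 was not tested where 10 normalized counts were required in every library, which left 1 sterol gene past both thresholds, Mylip, against 2. TMM scaling moved the median of all genes by 0.01, and under it Tm7sf2 had an adjusted p of 0.0522 (limma).

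The sign of the enzymes' median log2 fold change depended on the setting. It was 0.03 on all 6 libraries, -0.05 in both edgeR (-0.049) and DESeq2 (-0.046) on 5 libraries, and from -0.06 to 0.031 with 1 library left out. For all 31 genes it ran from 0.034 to 0.10 with a library left out. With a library left out there were from 9 to 11 sterol genes higher, from 6 to 7 lower, from 2 to 3 higher past both thresholds, and from 5 to 6 enzymes higher and from 4 to 5 lower. In DESeq2 the counts were 7 higher and 6 lower.

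Among genes that did not pass the test, the log2 fold change turned in sign with a library left out for Lss (from -0.25 to 0.20), Idi1 (from -0.13 to 0.31), Nr1h3 (from -0.032 to 0.64), Insig2 (from -0.006 to 0.051) and Mvk (from -0.022 to 0.076). On 5 libraries Lss was at -0.26 in edgeR and -0.26 in DESeq2, and Mvk at -0.01 in both (-0.011 and -0.009). The cause was not tested.

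With the replicate number as a block, 9 sterol genes were higher and 7 lower, and the block took the call from Tm7sf2 (adjusted p = 0.0668 from limma) and Srebf2 (adjusted p = 0.0698 from limma). Same-numbered libraries deviated from their group means with correlations from -0.148 to -0.045, so the numbers do not pair the libraries.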
